A study of Mus musculus with 415 samples.

Results

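The clustered protocadherin genes of the mouse lie side by side on chromosome 18 as the alpha, beta and gamma clusters, and 12 of the 23180 accessible regions in a single-cell ATAC-seq table fell within the 930 kb that hold them. The regions were chosen by position alone, as all those that overlap chromosome 18 from 37.08 to 38.01 Mb on the mm9 build. No measured value was part of that rule, but earlier results of these data were known when members were chosen. ATAC-seq uses the Tn5 transposase to cut accessible DNA and tag it for sequencing. Each sample was 1 cell of R1, an established mouse embryonic stem cell line, captured and transposed on a Fluidigm C1 chip. Before capture the cells had spent 48 hours in hanging drops, where they formed embryoid bodies, and 4 days in differentiation medium with retinoic acid, given in the labels as 0.5 mM. All cells shared this treatment and time point, no untreated cells were analysed here, and no separate cultures or chips are named, so the experiment is 1 sample of 1 cell line. Its cells are parts of that sample rather than replicates, so differences between them carry no p-value and no standard error. Intervals given for shares of cells are exact (Clopper-Pearson) 95% intervals, which cover the counting of cells only.

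Protocadherins of these clusters are cell-surface adhesion proteins, best known from neurons. There each cell transcribes its own small and largely random set of them, by which branches of the same neuron recognise each other. In the alpha and gamma clusters, each variable exon has a promoter of its own and is spliced to constant exons that all members of the cluster share, while beta genes consist of a single exon. Promoter choice depends on CTCF and cohesin, which bring promoters to distant enhancers, and on DNA methylation, which keeps unused promoters silent. In gene order, the RefSeq annotation lists 14 alpha, 22 beta and 22 gamma genes, of which all but 1 gamma gene are protein-coding. The coding genes Slc25a2, a mitochondrial carrier, and Taf7, a subunit of the general transcription factor TFIID, stand between the last beta and the first gamma gene, and Diaph1, an actin-nucleating formin, follows the gamma cluster. A region within the interval therefore need not belong to a protocadherin. That annotation is on the later build GRCm38, so no region was assigned to a gene and the label could not be checked against start sites. The regions are numbered 1 to 12 in their order along the chromosome.

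The table gives for each region and cell a whole number that behaves as bases of aligned reads, and any value above 0 counts here as an open region. Depth per cell was between 756 and 12267 open regions with a median of 3928, and between 791 and 25069 fragments, where 1 fragment is the bases of 1 read pair. In cells of low depth, regions can be closed for want of reads. Each region and cell was therefore also given an expected probability of being open, 1 − exp(−region rate × cell rate), with the rates set to match the open cells of every region and the open regions of every cell.

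Accessible regions were unevenly placed in the interval. Of its 3 equal parts of 310 kb, the first held 4 regions, the middle none and the last 8. The gap between regions 4 and 5 measured 424.4 kb and took up 45.6% of the interval. Of 22662 gaps between neighbouring regions on the autosomes, 4.41% were larger, and the median gap was 40.1 kb. The first 169.5 kb of the interval also held no region. Every region in the table was open in at least 31 cells. How regions were selected for it is not stated, so accessibility in these stretches was not analysed here. The number of regions was not low for a stretch of this length, since 2607 other autosomal tiles of 930 kb held a median of 7 regions (quartiles 2 and 12), 642 of them more than 12. The 930 kb before the interval held 26 regions and the 930 kb after it 24.

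The regions of the first part were open in few to moderate shares of cells. Region 1, from 37249458 to 37250410, was open in 55 cells, which is 13.3% (10.1% to 16.9%). Region 2, from 37303157 to 37304267, was open in 38 cells (9.16%, 6.56% to 12.4%), and region 3, from 37337938 to 37338680, in 62 cells (14.9%, 11.7% to 18.7%). Region 4, from 37377138 to 37378077, the last before the gap, was open in 85 cells (20.5%, 16.7% to 24.7%). Its interval lies above that of region 2 and overlaps that of region 3.

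Past the gap, region 5, from 37802490 to 37804216, was open in 110 cells (26.5%, 22.3% to 31.03%), the most of the 12, and at 1726 bp it was also the widest. Region 6, from 37815223 to 37816118, was open in 45 cells (10.8%, 8.02% to 14.2%), and region 7, from 37874349 to 37874886, in 34 cells (8.19%, 5.74% to 11.3%). The other 5 regions lie close together at the end of the interval. Regions 8, from 37965674 to 37966553, and 9, from 37974048 to 37975307, were each open in 84 cells (20.2%, 16.5% to 24.4%), and region 12, from 38001025 to 38002168, in 79 (19.04%, 15.4% to 23.1%). Between them lie the 2 narrowest regions of the interval. Region 10, from 37982068 to 37982567, was open in 36 cells (8.67%, 6.15% to 11.8%), and region 11, from 37984656 to 37985150, in 33 (7.95%, 5.54% to 10.99%). The 12 regions thus spread over a 3.33-fold range, within which region 5 overlaps regions 4, 8, 9 and 12 in its interval and the 5 least open regions, 2, 6, 7, 10 and 11, overlap one another.

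**Figure D1:**
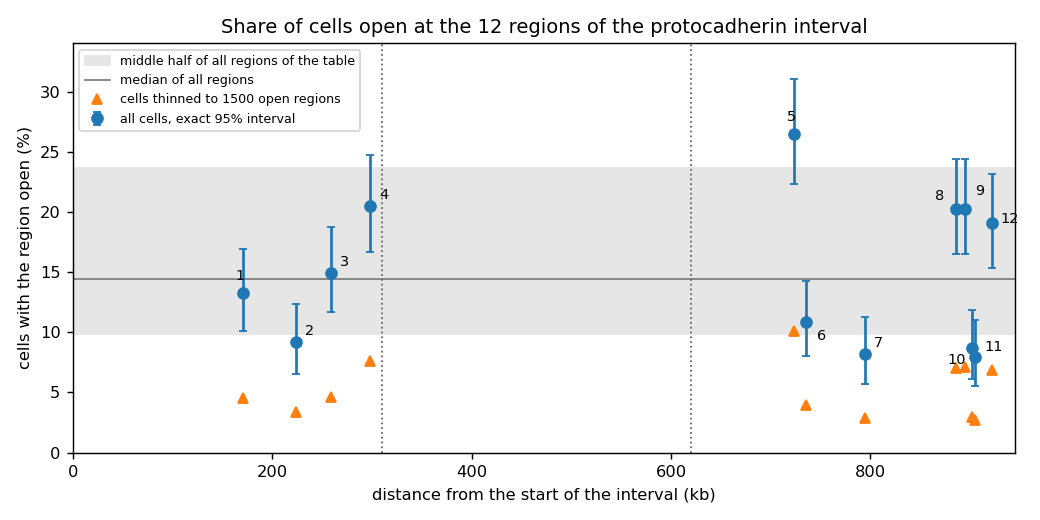
Percent of cells with each of the 12 regions open (vertical axis) against distance from the start of the interval in kb (horizontal axis), with exact 95% intervals for all cells and, as triangles, the share expected after thinning cells to 1500 open regions. Dotted lines mark the 3 parts of 310 kb, the grey band spans the quartiles of all 23180 regions, and the middle part is empty while region 5 stands highest at 26.5%.

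As a set the regions lay near the middle of the table. Their median share was 14.1%, against 14.5% over all 23180 regions (quartiles 9.88% and 23.6%). Region 5 alone lay above the upper quartile of all regions, and regions 2, 7, 10 and 11 lay below the lower one. The regions before the interval had a median share of 21.6% and those after it 14.8%. In width, 8 of the 12 exceeded the median of all regions, with a median of 917 bp against 762 bp. Wider regions were open in more cells here as elsewhere: the rank correlation of width and share was 0.71 over the 12 regions and 0.55 over all regions, given as a description of regions measured in the same cells.

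Open regions mostly held a single fragment. The median was 1 fragment per open cell in 10 of the regions, 0.966 in region 7 and 0.865 in region 11; a value below 1 is less than the bases of a full pair. More than 1 fragment was seen in 21.6% of the open values of the 12 regions, against 29.3% over all regions outside the 14 of very high signal. Within the interval this percentage was highest in regions 5 (26.4%), 9 (26.2%) and 4 (25.9%) and lowest in region 6 (8.89%). The largest value was 6.50 fragments, in region 5. None of the 12 was among the regions of very high signal.

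How many of the 12 regions were open in a cell followed depth. A cell had a mean of 1.80 open regions of the 12 (SD over cells 1.65, median 1). None was open in 25.5% of cells (interval 21.4% to 30.02%), exactly 1 in as many, 2 in 81 cells, 3 in 59 and 4 or more in 63 (15.2%, 11.9% to 19.001%). The most in any cell was 9. In the shallowest of 4 depth classes of about equal size, with a median depth of 1770.5 open regions, the mean was 0.731. It was 1.36, 2.07 and 3.03 in the following classes, whose median depths were 3163.5, 4649 and 6863.5. The means expected from depth were 0.697, 1.28, 1.95 and 3.25, so observed over expected was between 1.05 and 1.06 in the first 3 classes and 0.932 in the deepest. The cells without an open region numbered 53, 30, 15 and 8 in the 4 classes. Over cells, the correlation of open protocadherin regions with depth was 0.62 (Pearson) and 0.55 (Spearman), a description in which both measures come from the same library.

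**Figure D2:**
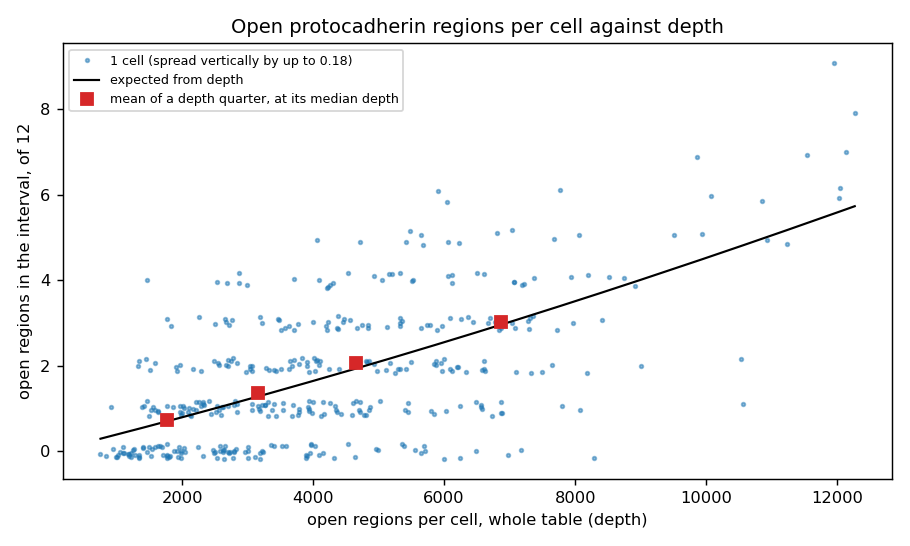
Number of the 12 protocadherin regions open in each cell (vertical axis) against the cell's open regions in the whole table (horizontal axis). The line is the number expected from depth, and the squares are means of depth classes, which lie at 0.731, 1.36, 2.07 and 3.03.

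The 2 cells with most open regions were among the 5 deepest. A cell with a depth of 11952 open regions had 9 of the 12 open, namely 1, 3 to 9 and 12, where 5.56 were expected. The deepest cell, with 12267, had 8 open and lacked regions 5, 6, 11 and 12. In both, regions on either side of the gap were open together. Depth did not fix the number, since cells at 10568 and 10524 had 1 and 2 open. Another cell, at a depth of only 6037, had 6 open (1, 2, 4, 5, 6 and 8), where 2.57 were expected. Whether any of these captures held more than 1 cell was not tested.

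The spread over cells was a little wider than depth alone gives. The variance of the number of open regions was 2.72. It would be 1.48 if each region opened independently at its own share in every cell, and 2.497 with each cell's depth taken into account. Measured on the difference between observed and expected numbers, the variance was 1.196 times that expected. This is the level of the rest of the genome, since 1187 other 930-kb tiles with 8 regions or more had a median ratio of 1.195 (quartiles 1.11 and 1.30) and 49.7% of them were higher. Among the 90 tiles that also held 12 regions the median was 1.16, and 33 were higher. Cells with none open outnumbered the expected 93.6, cells with 1 or 2 open (expected 115.6 and 90.4) were fewer, and 29.4% of cells had 3 or more open, where 115.4 cells were expected.

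**Figure D3:**
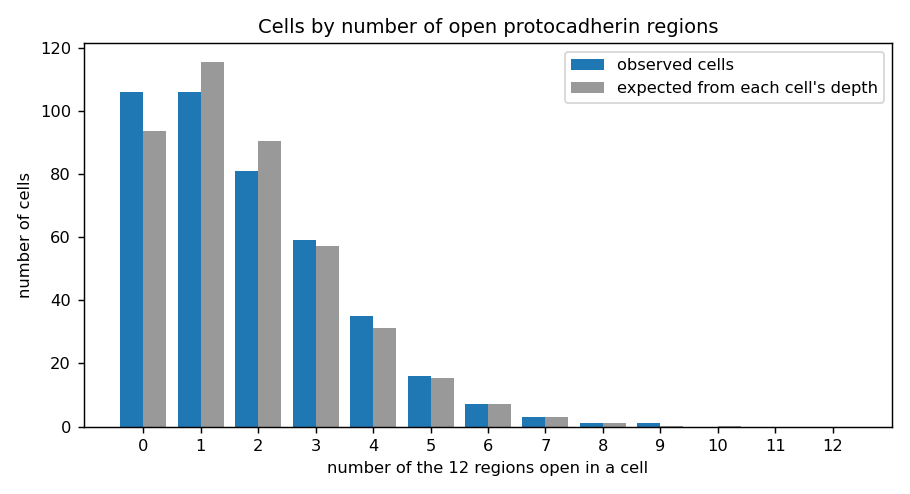
Cells (vertical axis) by the number of the 12 protocadherin regions open in them (horizontal axis), observed (dark bars) and computed from each cell's depth with regions opening independently (light bars). Cells with none open outnumbered the 93.6 expected, but that number lies within the counting interval of the observed share. From 5 open regions upward the bars nearly coincide.

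Pairs of protocadherin regions were open in the same cell about as often as depth gives. Over the 66 pairs, a cell open at both was counted 860 times, where 814.3 were expected from depth and 604.2 from the shares alone, so that an apparent 1.42-fold excess fell to 1.06-fold once depth was allowed for. Of the pairs, 37 were above and 29 below the expected number. No pair had a counting interval that left out a ratio of 1, with exact Poisson bounds on the number of cells. At these depths neither preferred nor avoided combinations of single regions could be told from counting error.

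The pairs with the highest ratios among the 60 with at least 5 cells expected either spanned the gap or lay past it. Of all 66 pairs, 32 spanned the gap, 28 lay past it and only 6 lay before it. Regions 3 and 7, 536 kb apart, were both open in 12 cells where 7.04 were expected, a ratio of 1.70 (0.880 to 2.98). Region 5 was open together with region 10 in 20 cells against 12.8 (1.56, 0.955 to 2.42) and with region 11 in 18 against 11.7 (1.53, 0.909 to 2.42). Region 1 shared 9 cells with region 7 (1.43, 0.656 to 2.72) and 21 with region 8 (1.40, 0.865 to 2.14), and regions 7 and 8 shared 13 (1.38, 0.736 to 2.36). The 3 lowest ratios each joined the first part to the last, as did 32 of the 66 pairs. Regions 4 and 11 were both open in 4 cells where 9.23 were expected (0.433, 0.118 to 1.11), regions 2 and 12 in 5 against 9.89 (0.505, 0.164 to 1.18) and regions 3 and 6 in 5 against 9.26 (0.540, 0.175 to 1.26). The next lowest joined regions past the gap, namely 7 and 12 (0.564) and 6 and 7 (0.580).

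Distance did not order these pairs in a simple way. Depth-corrected values of 2 regions were correlated over all cells, which share depth and preparation, and the mean over the 66 pairs was 0.0174. It was 0.0461 for the 3 pairs under 10 kb apart, 0.0101 for 10 pairs at 10 to 50 kb, 0.0362 for 21 pairs at 50 to 200 kb and 0.00458 for the 32 pairs farther apart, all of which span the gap. All autosomal pairs in these classes had means of 0.0360, 0.0229, 0.0149 and 0.0101, and those of chromosome 18 had 0.0510, 0.0222, 0.0179 and 0.0115. Of the 1187 other tiles, whose median was 0.0124, 26.5% had a higher mean than the interval. The mean of the interval was 0.00159 when more than 1 read pair was required and 0.00770 after thinning to 1500 open regions, settings in which the tiles were not measured. Correlations of this size in sparse data are weak, and they are given for their order only.

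The 28 pairs among the 8 regions past the gap had a mean of 0.0353, with 20 above 0, while the 6 pairs among regions 1 to 4 had 0.00202, with 2 above 0. Over all autosomal pairs, 68.8% were above 0 under 10 kb apart, 62.4% at 10 to 50 kb and 58.3% at 50 to 200 kb. Region 5 had the highest mean with its 11 partners, 0.0509, led by region 10 (0.169) and region 11 (0.145). In the deeper cells, those not below the median depth, these 2 values were 0.0878 and 0.219. Region 11 also had 0.146 with region 7 and 0.133 with its neighbour 10, pairs for which only 3.82 and 4.04 shared cells were expected, and in the deeper cells the first of these was 0.0437. Regions 2 and 3 had means below 0, at -0.00311 and -0.00129. Towards regions outside, the mean was 0.0158 for the 930 kb before the interval, 0.00833 for the 930 kb after it, 0.00293 for the rest of chromosome 18 and -0.000177 for other autosomes. Regions 5, 6 and 10 were correlated more with the side before the interval (0.0347, 0.0381 and 0.0334) than with the nearer side after it (0.00504, 0.000770 and -0.00205), and regions 1 and 4 more with the side after (0.0247 and 0.0236, against 0.00744 and 0.00679). Regions 2, 7, 9 and 11 also had the higher value with their farther side. Regions 3, 8 and 12 had it with their nearer side (0.0132, 0.0215 and 0.0176, against -0.00239, 0.0175 and -0.000592).

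**Figure D4:**
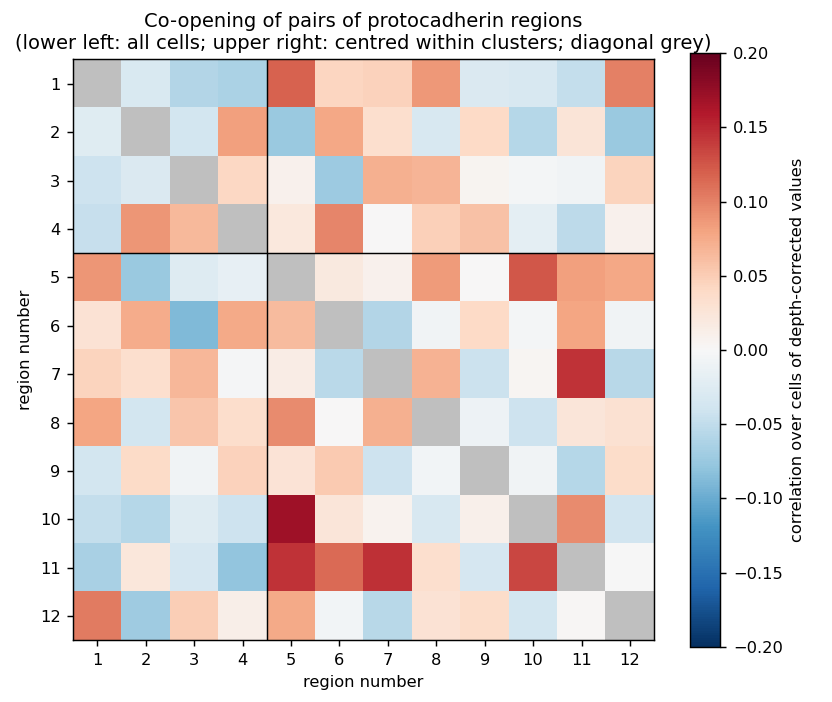
Correlation over cells of depth-corrected values for each pair of the 12 protocadherin regions, numbered along both axes, with all cells in the lower left and values centred within 3 cell clusters in the upper right. Black lines mark the gap, and the strongest square is that of regions 5 and 10 at 0.169, which is 0.124 within clusters.

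Groups of cells differed in which side of the gap was open. Cells were divided into 3 clusters from the 10 odd-numbered autosomes only, so that chromosome 18 played no part in defining them. Cluster 1 held 49.3% of the cells, cluster 2 held 25.8% and cluster 3 held 24.9%, with median depths of 3467, 4994 and 3715 open regions. The clusters carry no names, because the table names no genes. In cluster 3 the 4 regions before the gap were less open and the 8 regions past it more open than in the other cells, with the ratio of observed over expected openings below 1 in 4 of 4 and above 1 in 8 of 8. Over all 10319 regions of the even-numbered autosomes, 42.3% had a ratio above 1 in this cluster.

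Summed over regions 1 to 4, cells of cluster 3 had 34 openings where depth gave 57.1, or 0.596 of the expected number, and the other cells had 1.13 times the 182.8 that depth gave. The ratio between them was 0.529. Low ratios were common in this cluster, since single regions of the even-numbered autosomes had a median of 0.908 and a lower quartile of 0.496, and regions 1 to 4 lay at percentiles 27.4, 46.1, 19.1 and 23.5 of them. Regions 5, 6, 10 and 11 lay at percentiles 91.4, 91.1, 92.5 and 94.6, and regions 7, 8, 9 and 12 between 64.3 and 83.7. Summed over regions 5 to 12, cluster 3 had 1.503 times the 120.4 expected openings and the other cells 0.843 times the 384.4 expected, a ratio of 1.78. Cells with at least 1 of regions 5 to 12 open made up 84.5% of cluster 3 (interval 76.003% to 90.9%) and 56.3% of the other cells (50.6% to 61.9%). Those with at least 1 of regions 1 to 4 open made up 28.2% of cluster 3 (19.7% to 37.9%) and 48.2% of the others (42.6% to 53.9%). Summing by side of the gap was chosen after seeing the data, so these values are a description. Thinned to 1500 open regions per cell, with fragments not matched, cluster 3 had 0.114 and the other cells 0.233 open regions of the first 4, and 0.672 and 0.350 of the last 8. Among deeper cells, those not below the median depth, the ratios were 0.571 for regions 1 to 4 and 1.53 for regions 5 to 12, and among the shallower cells 0.462 and 2.26.

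Among single regions, 4 of 12 were at least 2-fold higher in cluster 3 after scaling for depth, where 10.6% of the even-numbered autosomes' regions were, and 2 of 12 were at least 2-fold lower, where 25.1% were. In the 930 kb before the interval, 5 of 26 were higher and 0 lower, with a median ratio of 1.11, against 1.15 over the 12. In the 930 kb after it, 1 of 24 was higher and 3 were lower, with a median of 0.807. Region 11 had the largest ratio of the 12, 4.40. In cluster 3, 19 cells had it open (18.4%, interval 11.5% to 27.3%), and 4.502% of the others did (2.48% to 7.44%). Region 10, which lies 2.09 kb away, had a ratio of 2.90 (16.5%, 9.92% to 25.1%, against 6.11%, 3.72% to 9.38%). Both lie close to the floor of 31 open cells that every region of the table met. Region 11 was open in 33 cells, 14 of them outside cluster 3, and region 10 in 36, 19 of them outside. Region 6 was open in 45 cells, 26 of them outside cluster 3, and region 7 in 34, 25 of them outside. The place of regions 6, 7, 10 and 11 in the table thus leans on the openings in cluster 3. This can raise their ratios and the sum over regions 5 to 12, and it was not tested. Region 5 had a ratio of 2.44, with 46.6% of cluster 3 open (36.7% to 56.7%) against 19.9% of the others (15.6% to 24.8%). Region 6 had 2.36 (18.4%, 11.5% to 27.3%, against 8.36%, 5.53% to 12.01%), and its intervals overlap.

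The lower regions were 3 and 4. Region 3 had a ratio of 0.408, with 6.80% of cluster 3 open (2.78% to 13.5%) against 17.7% of the others (13.6% to 22.4%). Region 4 was open in 10.7% (5.45% to 18.3%) against 23.8% (19.2% to 28.9%), a ratio of 0.473. Region 1 followed at 0.547, with overlapping intervals. Regions 2 (0.862), 7 (1.17), 8 (1.13) and 12 (1.08) lay close to 1, and region 9 was at 1.51. The 2 narrowest regions of the interval and the widest one were among the higher ones, while regions 8 and 12, near neighbours of 10 and 11, were little different between the groups.

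Cluster 1 showed the reverse order. Regions 1 to 4 together had 1.32 times the expected openings in cluster 1 and 0.757 times in the other cells, a ratio of 1.74 with 4 of 4 above 1. Regions 5 to 12 had a ratio of 0.766, and region 12 alone of the 8 was above 1, at 1.15. By the 2-fold rule region 3 was higher (ratio 2.07, 18.6% against 11.4% of cells), where 7.08% of regions on the even-numbered autosomes were. Region 11 was lower (0.497, 4.41% against 11.4%), where 11.3% were. In both regions the intervals overlap. Region 3 was open in 24 cells outside cluster 1, below the floor of 31 open cells. Each cluster was compared with all other cells, so the comparisons share cells and are not independent of each other.

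In cluster 2, the deepest of the 3, both sides of the gap were somewhat less open than depth gave. The ratio was 0.823 for regions 1 to 4 and 0.765 for regions 5 to 12, and 11 of 12 regions were below 1, against 52.2% over the even-numbered autosomes. Region 8 alone was above 1, at 1.09. Only region 11 was at least 2-fold lower (0.356, 4.67% against 9.12% of cells, with overlapping intervals), where 9.1% of the background regions were. None was 2-fold higher, where 10.3% were. The 26 regions of the 930 kb before the interval had a median ratio of 0.828 in cluster 2, against 0.782 over the 12. Of those 26, 5 were at least 2-fold lower. The 24 regions of the 930 kb after it had a median of 0.952, with 1 at least 2-fold lower and 1 higher.

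**Figure D5:**
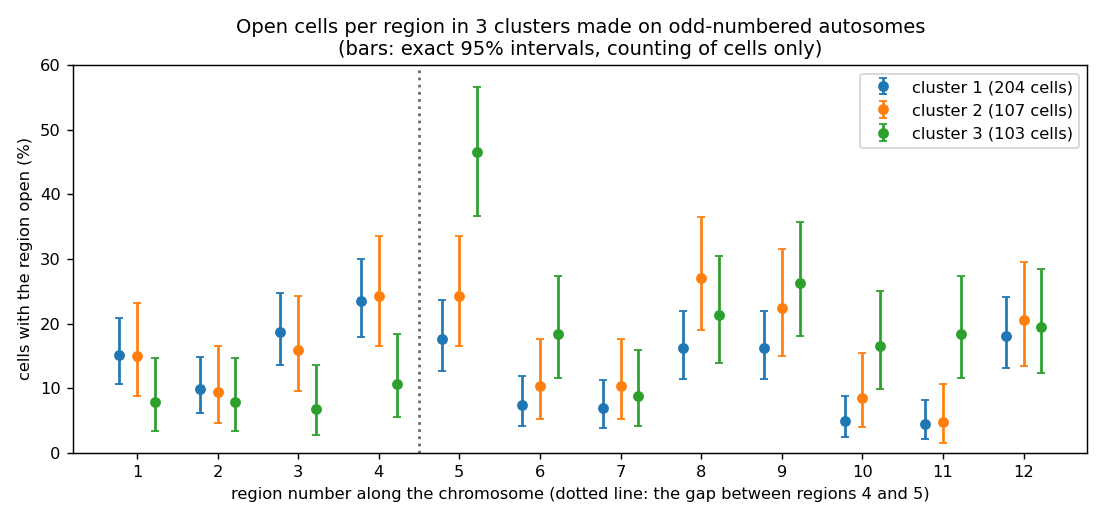
Percent of cells with each of the 12 protocadherin regions open (vertical axis), by region number (horizontal axis), in 3 clusters made on the odd-numbered autosomes, with exact 95% intervals. Left of the dotted line, which marks the gap, cluster 3 is lowest at each region, and right of it cluster 3 reaches 46.6% at region 5 and 18.4% at region 11.

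Cells of cluster 3 were unevenly spread over the title numbers, whose meaning the labels do not give. The comparison was therefore also made within 4 consecutive sets of about equal size. These sets held 38, 39, 11 and 15 cells of cluster 3. The ratio for regions 1 to 4 was 0.446, 0.513, 0.633 and 0.689 in them, and that for regions 5 to 12 was 2.08, 1.80, 1.48 and 1.65. The direction was alike in each, but the sets are parts of the cells in which the sides were chosen. They are therefore no independent repeats. The number of open protocadherin regions over that expected was 0.968, 1.07, 0.977 and 0.988 in the 4 sets. Single regions varied more. Region 3 had 0.609, 0.773, 1.18 and 1.41 times the expected openings in the sets from the lowest to the highest title numbers, and region 1 had 0.991, 1.45, 0.980 and 0.579 times. The part of the clusters in these values was not tested.

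Centring removes each cluster's own mean from every region, so differences between clusters no longer enter the correlation. The cause of the changes below was not tested. With depth-corrected values centred within each cluster, the mean correlation of the 28 pairs past the gap was 0.0210 in place of 0.0353, that of the 32 pairs across it was 0.0156 in place of 0.00458, that of the 6 pairs before it was -0.0109 in place of 0.00202, and the mean of all 66 pairs was 0.0155. The value was then 0.124 for regions 5 and 10 and 0.0819 for regions 5 and 11. The mean within cluster 3 alone was -0.000384, and it was 0.0215 and 0.0267 in clusters 1 and 2.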

How the data were processed

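The deposited table holds signal per region and cell as whole numbers. Per the submitters' processing notes, MACS2 and the build mm9 were used, without a stated role. The aligner, the handling of duplicates and how regions were selected were not given in the sources used here. That the signal is summed bases of read pairs of 148 bases was read from the values, so a value above 0 can be part of 1 read. Regions were chosen by position, and the members and lists with earlier results of these data known. Regions are named by position. All 12 could be named.

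Depth was modelled over all 23180 regions and 415 cells. No doublet caller was run. Clusters used 414 cells with at least 1000 fragments, TF-IDF weights scaled by 10000, components 2 to 10 and k-means with 50 starts. Clusters made on the even-numbered autosomes without 18 matched them with an adjusted Rand index of 0.787. A ratio of at least 2-fold in either direction was called. Cluster sizes were 204, 107 and 103. Thinning kept 382 cells and left out 33 with fewer than 1500 open regions. The scripts for the depth model, pair correlation and cluster ratio were tested on data simulated with known rates. Software was Python 3.11.15, numpy 2.4.6, scipy 1.17.1 and scikit-learn 1.9.0. The design had assumed that a genome annotation on mm9 might be given. None was, so gene lists were not run.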

Additional observations from a re-analysis of the deposited data

How the results depend on the processing

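The interval held 12 regions when only those wholly inside were counted and 16 when widened by 50 kb on each side. The variance ratio lay between 1.10 and 1.198 in its 4 alternatives. Both sides of the gap kept their direction in cluster 3 in all alternatives run for them, none of which changed the number of clusters. With 2 clusters, 4 of 12 regions differed at least 2-fold, where 34.3% of the regions on the even-numbered autosomes did. With 4 clusters, 1, 7, 3 and 1 of 12 differed in the clusters, where 8.66%, 36.3%, 19.2% and 19.1% did. The median share of open cells was 2.65% when more than 1 read pair was required, 23.3% in the deeper cells, those not below the median, and 4.55% after thinning to 1500 open regions, and the mean number of open regions per cell was 0.388, 2.54 and 0.637. The mean pair correlation was 0.00159 with more than 1 read pair and 0.00770 after thinning. At 1.5-fold, 7 regions in cluster 1 and 4 in cluster 2 differed in place of 2 and 1, where 33.7% and 33.4% of the regions on the even-numbered autosomes did. Cluster 2 had 4 with the first component kept and 2 after thinning, where 16.7% and 22.03% of those regions did. In cluster 3 the ratio for regions 5 to 12 was 2.83 with more than 1 read pair. Leaving out each region in turn gave 1.63 to 1.94 for regions 5 to 12 and 0.472 to 0.573 for regions 1 to 4. The sums for each side of the gap and their alternatives were chosen after seeing the data. No paired analysis was possible because the series holds 1 group. Depth limits the pairs, since the least open regions share few cells.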
